A study of Mus musculus with 6 samples.

Results

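The actin isoforms of the mouse left ventricle are described here: the skeletal muscle actin Acta1, the cardiac actin Actc1, the smooth muscle actins Acta2 and Actg2, and the cytoplasmic actins Actb and Actg1. The family was chosen by its gene symbols in the platform's probe-to-gene table, with the Lira against placebo values of these arrays already known, among them the lower Acta1 signal. The differences between the groups are therefore given for the actins as a description, with no p-value. The number of actins past the threshold of the fit over all genes is printed beside its background, and supports nothing here. Its dependence on the processing is given at the end. The 6 genes, of 18193 named genes on the array, were measured by 12 probe sets, which are groups of short probes for 1 transcript. Acta1, Actc1, Actg2 and Actg1 had 1 probe set each, Acta2 had 3, and Actb had 5, of which 3 are control probe sets for parts of its messenger RNA. In the build GRCm38.p6 the genes lie apart in the genome, Acta1 (Entrez Gene 11459) at chr8:123891758-123894775, Actc1 (11464) at chr2:114047282-114052875, Acta2 (11475) at chr19:34240336-34255585, Actg2 (11468) at chr6:83512909-83536251, Actb (11461) at chr5:142903115-142907976 and Actg1 (11465) at chr11:120345687-120348495.

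The mice were males of the inbred strain C57BL/6, aged 6 months and fed a high fat diet for 16 weeks, and RNA was taken from the left ventricle. One group of 3 mice had received the agent that the labels call Lira and spell out no further, and the other group of 3 had received placebo, with the diet, sex, age and strain shared by both groups. Each mouse gave 1 array. Of the 10 mice that the study's design mentions, only these 6 were analysed here. The labels state no dose and no duration of Lira, and their extraction text names blood where the description names ventricle. Cardiomyocyte markers were bright on all arrays, with Tnnt2 at 34475 to 41280 units with Lira and 34000 to 37055 units with placebo. The erythroid markers of blood were dim, with a summed signal of 109 to 185 units with Lira and 115 to 254 units with placebo. Of 7 erythroid markers, 5 had a probe set named for 1 gene, and 3 were bright enough to be tested. Probe sets named for several genes were left out, so this sum need not hold all globin RNA.

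Actins are the proteins that polymerise into thin filaments, on which myosin pulls. The striated muscle isoforms Acta1 and Actc1 build the sarcomere, the smooth muscle isoforms Acta2 and Actg2 serve contraction of vessel and gut walls, and Actb and Actg1 form the cytoskeleton of nearly every cell. The adult mouse ventricle uses mainly the cardiac isoform, and Acta1 is known as an isoform of the fetal and the overloaded heart. Actin genes are classical targets of the serum response factor SRF, which binds the CArG box in their promoters together with cofactors of the myocardin family.

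The promoters of Acta1 and Acta2 are shown whole because these 2 isoforms had the largest differences of the 6 between the groups, in opposite directions. RefSeq windows of the build GRCm38.p6, which run from 250 bases before to 50 bases after an annotated start, were at hand for Acta1, Acta2, Actc1 and Actg1. Capitals mark CArG boxes and CArG-like sites, and all 4 genes lie on the minus strand. The Acta1 window is chr8:123894726-123895025 and the Acta2 window is chr19:34255324-34255623.
Acta1: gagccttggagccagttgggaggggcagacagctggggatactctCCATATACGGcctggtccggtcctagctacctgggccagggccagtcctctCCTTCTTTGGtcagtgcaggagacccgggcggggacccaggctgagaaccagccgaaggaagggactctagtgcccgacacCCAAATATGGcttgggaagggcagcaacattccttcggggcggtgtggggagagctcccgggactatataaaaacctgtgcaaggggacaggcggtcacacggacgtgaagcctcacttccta
Acta2: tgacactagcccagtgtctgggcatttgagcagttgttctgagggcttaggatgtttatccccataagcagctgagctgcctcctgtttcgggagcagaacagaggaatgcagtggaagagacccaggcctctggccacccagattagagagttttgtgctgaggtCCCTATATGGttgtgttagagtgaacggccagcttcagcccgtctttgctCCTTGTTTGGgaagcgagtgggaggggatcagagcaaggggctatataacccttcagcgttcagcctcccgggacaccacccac

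Of the other isoforms with a window, the stretch around the CArG box is shown for comparison, chr2:114052903-114052932 for Actc1 and chr11:120348566-120348595 for Actg1.
Actc1: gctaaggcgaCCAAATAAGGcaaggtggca
Actg1: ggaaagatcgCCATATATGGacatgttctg

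The CArG box was searched as CC, 6 letters that are each A or T, and GG, and a CArG-like site as the same with 1 of the 6 middle letters C or G, on both strands. Acta1 had a CArG box from -73 to -64, counted from the annotated start, and CArG-like sites from -205 to -196 and from -154 to -145. Acta2 had 2 CArG-like sites, from -84 to -75 and from -34 to -25, and its window held no CArG box without a C or G in the middle. Actc1 had a CArG box from -47 to -38 and 3 CArG-like sites. Actg1 had a CArG box from -90 to -81 as its only match of either kind. Over all 32841 windows of the same length in the table, 1.63% held a CArG box and 8.49% a CArG-like site. The MCAT core CATTCC, to which TEAD factors bind, lay in the windows of Acta1 and Acta2 and in 14.7% of all windows. The TATA box, searched as TATAAA or TATATA, lay in the windows of Acta1, Acta2 and Actc1, and in 17.1% of all windows. In Acta2 and Actc1 this match lay after the annotated start, so that distances depend on the start that RefSeq names. The GC box GGGCGG, a site of Sp1, matched Acta1 and Actg1 and 35.7% of all windows, and the matches of these motifs to each other overlapped only within a motif, between 2 TATA matches in Acta1 and 2 GC boxes in Actg1. A match is a description of the letters and does not show that a factor was bound.

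**Figure D1:**
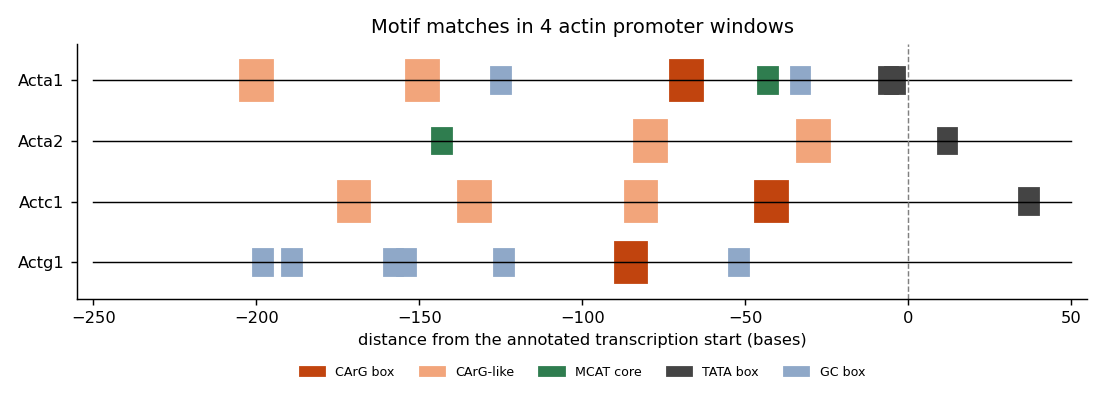
Positions of motif matches, on either strand, in the promoter windows of 4 actin genes, with the distance from the annotated start in bases on the x axis. Acta1, Actc1 and Actg1 hold a CArG box (dark orange), and Acta2 holds 2 CArG-like sites (light orange).

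Acta1, the skeletal muscle actin, was lower with Lira. Its probe set 1427735_a_at gave 1457, 1893 and 1421 signal units on the 3 Lira arrays, against 2611, 2762 and 3553 on the 3 placebo arrays. Every Lira array lay below every placebo array, and placebo replicate 3 was the highest of its group. The means were 1590 ± 263 with Lira and 2975 ± 506 with placebo (SD, n = 3 each), with the placebo mean 1.87 times the Lira mean, and the log2 difference, Lira minus placebo, was -0.90 ± 0.14 (SE). These signals are arbitrary linear units, and differences are on the log2(signal + 16) scale unless stated otherwise. The SE of a difference is moderated, which means that limma draws the variance of a probe set towards that of others of like brightness. It can therefore be smaller or larger than the arrays of that probe set alone would give.

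Actc1, the main actin of the cardiac sarcomere, had overlapping groups. It gave 32497, 40936 and 30169 units with Lira, against 32053, 33438 and 30615 units with placebo. Lira replicate 2 was the highest array, and the other 5 lay within the narrow range of 30169 to 33438 units. The log2 difference was 0.10 ± 0.14 (SE, n = 3 each). The spread over mice was wider with Lira, with a coefficient of variation of 16.4% against 4.41% with placebo. The summed signal of the cardiomyocyte markers was also highest on this array, at 292920 units on Lira replicate 2 and 240670 to 254970 on the other 5 arrays. Not every marker followed the sum. Ryr2 was highest on Lira replicate 1, Actn2 on placebo replicate 2 and Mybpc3 on placebo replicate 1, and the other markers of the list on Lira replicate 2. Nor was the high array particular to that list. The gene most like Actc1 over the 6 arrays, Tpt1 (Pearson r = 0.998), is not in it. Tpt1 gave 31528 units on Lira replicate 2 and 24325 to 26379 on the other 5 arrays. With quantile normalisation the log2 difference of Actc1 was -0.03. Why this array was high was not tested.

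Acta2, the smooth muscle alpha-actin of vessel walls, pericytes and activated fibroblasts, was higher with Lira on the bright one of its 3 probe sets. Probe set 1416454_s_at gave 3377, 1579 and 1518 units with Lira, against 1122, 1074 and 1391 units with placebo. The groups did not overlap, but Lira replicate 1 stood apart at 2.14 times the next highest array, and the gap between the lowest Lira and the highest placebo array was 127 units. The means were 2158 ± 1056 with Lira and 1196 ± 170 with placebo (SD, n = 3 each). The log2 difference was 0.75 ± 0.25 (SE), and without Lira replicate 1 it was 0.38. The coefficient of variation was 48.9% with Lira and 14.25% with placebo. The moderated SE of Acta2 is smaller than these arrays alone would give. The other probe sets were near the dim end of the array, at 22.8 to 26.5 units with Lira and 12.8 to 26.6 units with placebo for 1444105_at, and at 9.71 to 29.6 units with Lira and 5.86 to 22.2 units with placebo for 1456658_at. Both had overlapping groups, with log2 differences of 0.16 ± 0.28 and 0.15 ± 0.33 (SE).

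Actg2, the smooth muscle gamma-actin known from gut and bladder, was dim and lower with Lira. It gave 100.6, 135 and 117 units with Lira, against 149, 172 and 158 units with placebo. All Lira arrays lay below all placebo arrays, with Lira replicate 2 nearest to the placebo group. The means were 118 ± 17.3 with Lira and 159.6 ± 11.7 with placebo (SD, n = 3 each), and the log2 difference was -0.40 ± 0.16 (SE). The 2 smooth muscle actins thus differed in opposite directions.

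Actb, the cytoplasmic beta-actin often used to normalise expression measurements, had overlapping groups on each of its 5 probe sets. The brightest of the 2 regular ones, 1436722_a_at, gave 5742, 4652 and 4458 units with Lira, against 5023, 5371 and 5208 units with placebo. Lira arrays were both the highest and the lowest. The log2 difference was -0.08 ± 0.11 there and -0.10 ± 0.09 on the other regular probe set, 1419734_at. The control probe sets for the 3′ end, the middle and the 5′ end of the transcript gave -0.07 ± 0.09, -0.07 ± 0.10 and -0.11 ± 0.09 (SE, n = 3 each). The 5 values had the same sign, on probe sets that share 1 transcript.

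Actg1, the cytoplasmic gamma-actin, also had overlapping groups. It gave 3336, 3538 and 3133 units with Lira, against 3599, 3153 and 2793 units with placebo. Both the highest and the lowest array were placebo arrays, and the log2 difference was 0.07 ± 0.10 (SE).

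**Figure D2:**
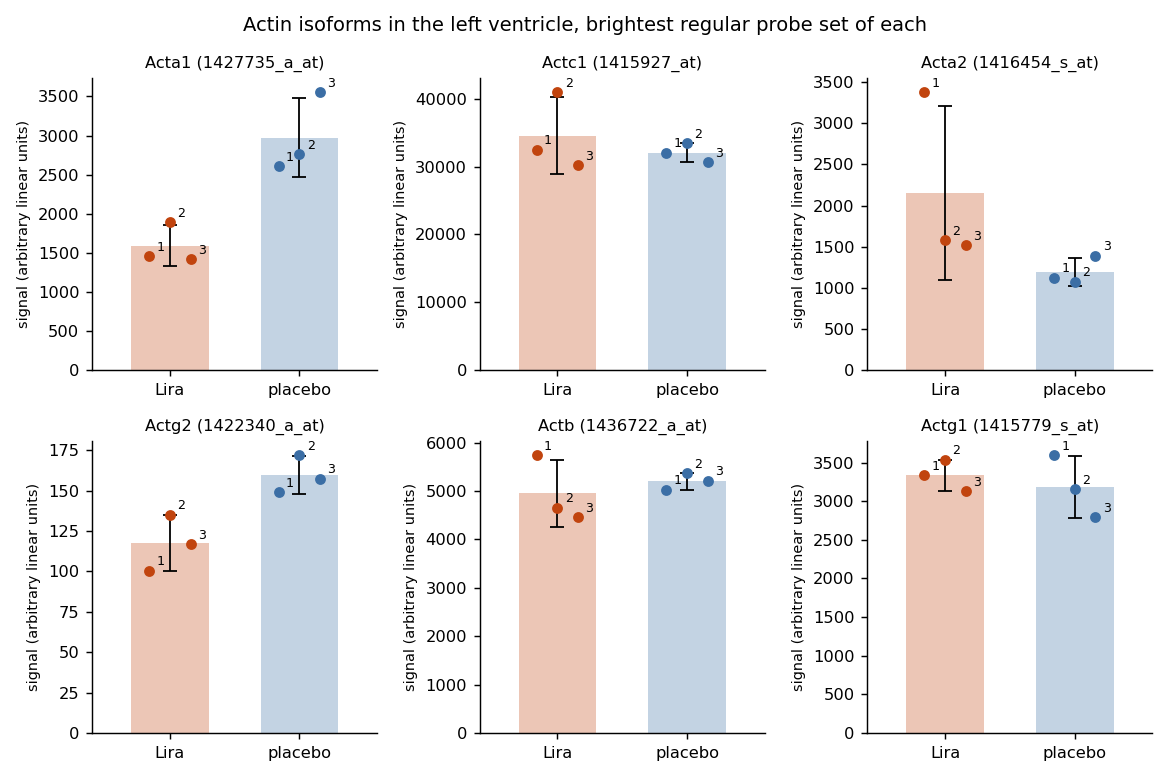
Signal in arbitrary linear units (y axis, from 0) of the brightest probe set of each actin gene, control probe sets aside, on the 3 Lira and the 3 placebo arrays. Points are mice with their replicate number, bars are group means and error bars are SD; Acta1 and Actg2 lie lower and Acta2 higher with Lira without overlap, and the other 3 isoforms overlap.

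The 6 genes were all bright enough to enter the fit over 12735 genes. In that fit, limma with Benjamini-Hochberg adjustment at 0.05, 1 member, Acta1, was past the threshold, where 0.055% of all genes were (7 of 12735). The groups did not overlap in 3 members, 2 lower and 1 higher with Lira. Among all genes tested the groups did not overlap in 11.4%, which is 5.41% lower and 5.98% higher with Lira. Since the members were chosen on this comparison, nothing is read from these counts. Over all genes the median log2 difference was 0.008.

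**Figure D3:**
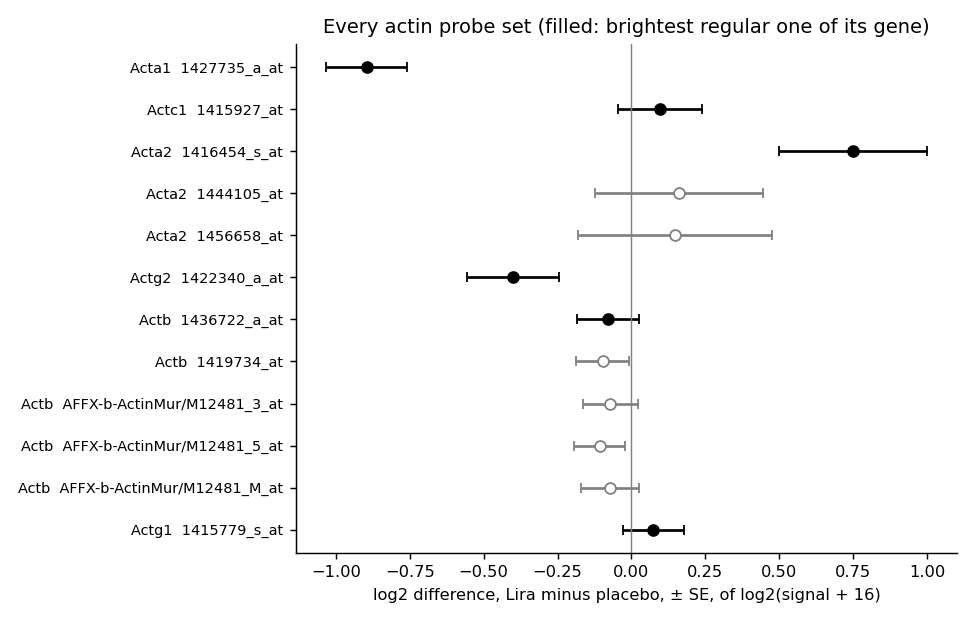
Log2 difference, Lira minus placebo, of log2(signal + 16) for each of the 12 actin probe sets (x axis), with SE from a fit to all named probe sets. Filled points are the brightest probe set of a gene, control probe sets aside, and open points the others; Acta1 lies at -0.90, the bright Acta2 probe set at 0.75 and the 5 Actb probe sets between -0.11 and -0.07.

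Near-identical coding sequences limit what the probes can tell apart. In the array's naming, probe sets that end in _s_at hold probes that match transcripts of more than 1 related gene, and this is so for the bright Acta2 probe set and for that of Actg1, while the ending _a_at of the Acta1, Actg2 and brightest Actb probe sets stands for several transcripts of 1 gene. Whether signal of one actin reached the probes of another was not tested. Ventricle RNA mixes cell types, and in bulk samples fewer cells of a type and less RNA per cell cannot be told apart.

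Ratios of isoforms within an array do not depend on the scaling of that array. A ratio of 2 probe sets is no ratio of molecules, since probe sets differ in brightness, so only its difference between arrays was compared. Acta1 signal was 4.48%, 4.62% and 4.71% of the Actc1 signal with Lira, against 8.15%, 8.26% and 11.6% with placebo. The Lira values lay closely together and below all placebo values. The mean was 4.61% ± 0.114 with Lira and 9.34% ± 1.97 with placebo (SD, n = 3 each), and the log2 ratio, with no pseudocount, differed by -1.0. On the log2 scale the SD of this ratio was 0.036 among Lira mice and 0.289 among placebo mice. Lira replicate 2, the array with the most Actc1, also had the most Acta1 of its group.

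Actg2 signal was 0.310%, 0.330% and 0.388% of the Actc1 signal with Lira, against 0.465%, 0.515% and 0.514% with placebo, again without overlap. Acta2 signal was 10.4%, 3.86% and 5.03% of the Actc1 signal with Lira, against 3.50%, 3.21% and 4.54% with placebo. Here the groups overlapped, and Lira replicate 2 lay below placebo replicate 3. Relative to Actb, Acta2 did not overlap, at 58.8%, 33.9% and 34% with Lira against 22.3%, 20.0% and 26.7% with placebo. As a share of the summed signal of the 6 isoforms Acta2 overlapped again, so whether its groups overlapped depended on the isoforms it was set against.

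The ratio of Acta1 to Acta2 had the largest log2 difference of the ratios computed between isoforms. Acta1 signal was 43.1%, 119.9% and 93.6% of the Acta2 signal with Lira, against 233%, 257% and 256% with placebo. The log2 ratio differed by -1.66, with an SD of 0.769 among Lira mice and 0.081 among placebo mice. The ratio of the cytoplasmic isoforms, Actg1 to Actb, overlapped, at 58.1% to 76.1% with Lira and 53.6% to 71.6% with placebo.

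**Figure D4:**
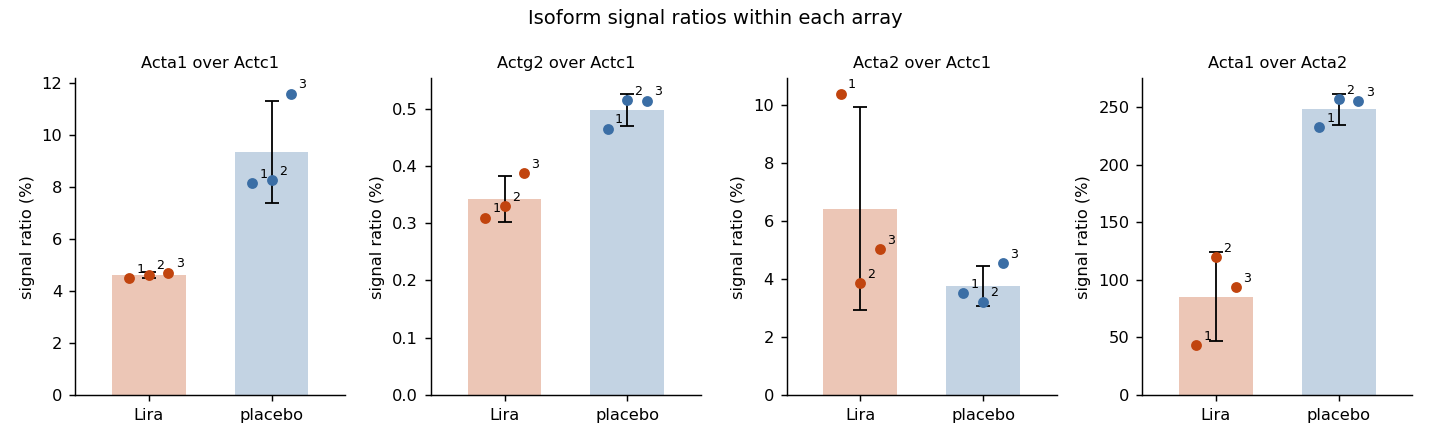
Signal of one actin isoform as a percentage of another on the same array (y axes, from 0), with a point for each mouse and its replicate number, bars for group means and error bars for SD. Acta1 over Actc1 lies between 4.48% and 4.71% with Lira and between 8.15% and 11.6% with placebo, and Acta2 over Actc1 overlaps between the groups.

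The sum of the signals of the 6 isoforms, each by its brightest regular probe set, was 46508, 52732 and 40815.5 units with Lira, against 44557, 45970 and 43718 units with placebo. The groups overlapped. Actc1 made up 69.9% to 77.6% of this summed signal with Lira and 70.0% to 72.7% with placebo, and Acta1 3.13% to 3.59% with Lira and 5.86% to 8.13% with placebo.

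The control probe sets of Actb also report the integrity of the RNA, since degraded RNA loses signal at the 5′ end. The ratio of the 3′ to the 5′ signal was 1.74, 1.63 and 1.63 with Lira, against 1.65, 1.55 and 1.67 with placebo (two-sided exact permutation test, p = 0.6, where 3 against 3 arrays allow no p below 0.1). The same ratio of the control gene Gapdh was 0.809, 0.830 and 0.782 with Lira, against 0.828, 0.781 and 0.790 with placebo (exact permutation p = 0.7, n = 3 each). The values of both groups overlapped for both genes.

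Acta2 is a marker of smooth muscle, and other markers of that cell type were set beside it. Of 11 vascular smooth muscle markers, 9 were bright enough to be tested, 5 higher and 4 lower with Lira, and 0 passed in limma, either after adjustment or at an unadjusted p under 0.05. Their summed signal was 3503, 3388 and 3150 units with Lira, against 3365, 3022 and 2958 units with placebo, and the groups overlapped. Lira replicate 1 was the highest array, at 1.03 times the next one, while its Acta2 signal was 2.14 times the next one. The smooth muscle myosin Myh11 gave 121, 185 and 127 units with Lira, against 130.2, 124 and 123 units with placebo. Tagln, which encodes transgelin, gave 192, 243 and 169.5 units with Lira, against 201, 230.0 and 178 units with placebo. Of the 9 tested markers, 4 were highest on Lira replicate 1 (Myl9, Mylk, Synpo2 and Itga8), 3 on Lira replicate 2 (Myh11, Tagln and Ntn4) and 2 on placebo replicate 1 (Smtn and Sncg). Myl9, a smooth muscle myosin light chain, gave 457, 445 and 314 units with Lira, against 356, 329 and 327 units with placebo. Mylk, the kinase of that light chain, gave 397, 280.2 and 354 units with Lira, against 363, 280.8 and 314 units with placebo. Both overlapped between the groups. Itga8 gave 74.0, 62.7 and 47.2 units with Lira, against 73.3, 61.7 and 54.0 units with placebo, also with overlap. Cnn1 and Lmod1 were too dim to be tested. Cnn1, which encodes calponin, gave 10.6, 6.55 and 9.49 units with Lira, against 9.02, 27.1 and 16.1 units with placebo, with overlap. Lmod1, a leiomodin, gave 10.8, 15.5 and 8.56 units with Lira, against 2.67, 6.50 and 6.35 units with placebo, and was higher on every Lira array. Synpo2, an actin-binding protein and the brightest of these markers, gave 1383, 1324 and 1367 units with Lira, against 1262, 1185 and 1206 units with placebo, without overlap, while Smtn overlapped. Of the 4 Synpo2 probe sets 3 had this sign.

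Pericytes and activated fibroblasts can express Acta2 too. Of 8 pericyte markers 5 were higher and 3 lower with Lira, and their summed signal was 13667 to 14647 units with Lira and 12546 to 13899 units with placebo. Of 9 activated fibroblast markers 7 were tested, with 4 higher and 3 lower, and the sums were 1058 to 1110 units with Lira and 1095 to 1206 units with placebo. Both lists had 0 members past the adjusted threshold in limma. At an unadjusted p under 0.05 they had 0 pericyte and 3 activated fibroblast markers. Of these 3, 1 was higher and 2 were lower with Lira. Over all genes 6.02% had such a p. The brightest pericyte markers Rgs5 and Abcc9 overlapped between the groups. Postn, which encodes the matrix protein periostin, gave 349, 305 and 323 units with Lira, against 469, 438 and 364 units with placebo, lower on every Lira array (log2 difference -0.36 ± 0.12, SE, limma adjusted p = 0.66). Cilp was also lower without overlap. Ddah1 had a higher mean with Lira but overlapped, at 93.2, 123 and 123 units with Lira, against 73.4, 53.5 and 110 units with placebo (limma adjusted p = 0.82). Fn1, which encodes fibronectin, overlapped too. The part of the cell mixture in the Acta2 values was not tested further.

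Acta1 is the actin of skeletal muscle, and markers of fast skeletal muscle were set beside it. Their summed signal over 13 markers was 1495, 1393 and 1286 units with Lira, against 1644, 1759 and 2004 units with placebo, without overlap. All 7 tested markers were lower with Lira, with a median log2 difference of -0.32, where 48.1% of all genes tested were lower. In limma 0 passed after adjustment, and 1 had an unadjusted p under 0.05, where 6.02% of all genes did. The groups were apart in 1 of the 7, Myl1. Of the others, Myh2, Tnni2, Mylpf and Atp2a1 were dim, at 10.8 to 70.5 units over all arrays. Most of the sum came from Myl1, a light chain of fast muscle myosin, which gave 1218, 972 and 977 units with Lira, against 1279, 1364 and 1556 units with placebo (log2 difference -0.41 ± 0.11, limma adjusted p = 0.54). Without Myl1 the sums were 277, 421 and 309 units with Lira, against 365, 395 and 448 units with placebo, and the groups overlapped. The defining fast genes Myh1, Myh4, Tnnt3, Tnnc2, Actn3 and Pvalb were too dim to be tested, at 1.41 to 35.2 units on all arrays. They had no common direction, and each overlapped between the groups. The means of Myh1, Tnnc2 and Actn3 were higher with Lira, and those of Myh4, Tnnt3 and Pvalb were lower. The shared direction thus covers only the tested part of the list. The next brightest marker, Casq1, overlapped. Among the 4 tested slow muscle markers 2 were higher and 2 lower. Where 6.02% of all genes had an unadjusted p under 0.05, 1 of the 4 did. This was Myh7, the slow myosin heavy chain, which the stressed ventricle also makes, at 986, 1108 and 1029 units with Lira, against 1194, 2009 and 1625 units with placebo. Like Acta1 it was lower on every Lira array (log2 difference -0.59 ± 0.15, SE, limma adjusted p = 0.44). The brightest slow markers, Myl3 and Tnnc1, are also cardiac and overlapped. The part of skeletal muscle in the Acta1 values was not tested.

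**Figure D5:**
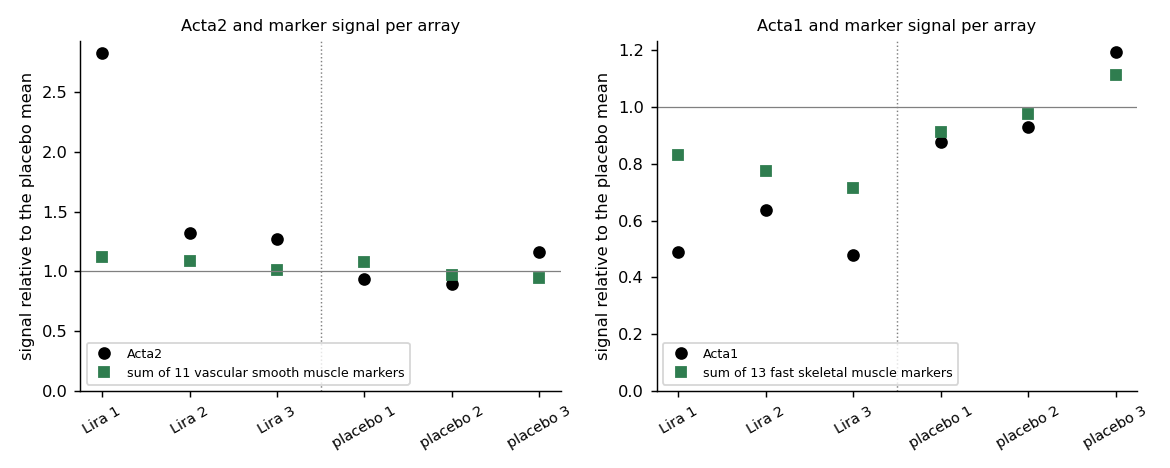
Signal relative to the placebo mean (y axes, from 0) on each of the 6 arrays for Acta2 beside the sum of 11 vascular smooth muscle markers, and for Acta1 beside the sum of 13 fast skeletal muscle markers. Lira replicate 1 stands out in Acta2 and not in the smooth muscle sum, and both Acta1 and the fast muscle sum lie lower on all Lira arrays.

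Atrial markers were checked because atrial tissue could have been taken along. The atrial light chain Myl7 was dim on every array, at 1.44 to 3.34 units with Lira and 2.18 to 17.3 units with placebo. The summed signal of the 9 markers was 3047 to 3598 units with Lira and 4168 to 4493 units with placebo, without overlap. Nppa was the largest part of this sum on every array, at 1386 to 2142 units with Lira and 2610 to 3037 units with placebo. The sum therefore does not show that the atrial markers as a whole were lower. Of the 7 tested markers 4 were higher and 3 lower, and 0 passed in limma after adjustment. Where 6.02% of all genes had an unadjusted p under 0.05, 2 of the 7 did, both lower. They were Nppa, which the stressed ventricle also makes and whose values are given with the SRF targets, and the potassium channel Kcna5. Kcna5 gave 517, 529 and 427 units with Lira, against 588, 656 and 565 units with placebo (log2 difference -0.29 ± 0.12, SE, limma adjusted p = 0.75). It had this signal on the same arrays on which Myl7 was dim, and whether it came from atrial cells was not tested. The other marker lists, for fibroblasts, endothelial cells, leukocytes, adipocytes and visceral smooth muscle, had 0 members past the adjusted threshold in limma. Only 1 of 6 adipocyte markers and 3 of 7 visceral smooth muscle markers were bright enough to be tested, so their counts say little. At an unadjusted p under 0.05 they had 3 fibroblast markers, with Dcn higher and Col3a1 and Mfap5 lower, and 1 leukocyte marker, Cd74, which was higher. Of the fibroblast markers 10 were tested and of the leukocyte markers 9, and over all genes 6.02% had such a p. Dcn, which encodes the matrix protein decorin, gave 8706, 7303 and 7918 units with Lira, against 6676, 6828 and 6867 units with placebo, without overlap (limma adjusted p = 0.71). All 9 leukocyte markers were higher with Lira, where 48.1% of all genes tested were lower. C1qa was apart between the groups and Csf1r overlapped. The brightest endothelial markers Esam and Egfl7, Gsn of the fibroblast list, and the cardiomyocyte myosin Myh6 overlapped. Of 11 tested cardiomyocyte markers 8 were higher and 3 lower with Lira, and 0 passed in limma after adjustment. At an unadjusted p under 0.05 there was 1, Ryr2, where 6.02% of all genes had such a p. Ryr2 gave 7879, 7648 and 7572 units with Lira, against 7006, 6630 and 6587 units with placebo, without overlap. Mybpc3 was lower with Lira without overlap.

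The genes around the actins were followed in 10 lists of 182 genes, of which 158 were bright enough to be tested. In limma 0 of the 158 passed after adjustment over all genes, with a smallest adjusted p of 0.16. At an unadjusted p under 0.05 there were 11, which is 6.96% where all genes gave 6.02%, with 2 higher and 9 lower with Lira. The median log2 difference of the 158 genes was 0.009, against 0.008 over all genes.

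The regulators of actin transcription gave small differences. Of 10 tested genes for SRF and its cofactors 5 were higher and 5 lower. Myocd, which encodes the cofactor myocardin, gave 279, 231 and 225 units with Lira, against 300.5, 292 and 309.9 units with placebo. All Lira arrays lay below the placebo arrays, with a log2 difference of -0.29 ± 0.12 (SE, limma adjusted p = 0.80), and both of its probe sets had this sign. Abra, also called STARS, an actin-binding activator of SRF signalling in striated muscle, gave 584, 537 and 758 units with Lira, against 450.1, 497 and 663 units with placebo, with overlap.

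Of 11 other factors known at actin promoters 8 were higher and 3 lower. Klf4, a repressor of smooth muscle genes, gave 842, 835 and 849.6 units with Lira, against 1158, 1036 and 1257 units with placebo. The groups did not overlap, the log2 difference was -0.44 ± 0.10 (SE, limma adjusted p = 0.29), and both probe sets had this sign. Sp1 gave 447, 446 and 463 units with Lira, against 400, 335 and 418 units with placebo, and 1 of its 3 probe sets had the other sign.

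Of 27 tested SRF target genes other than actins 12 were higher and 15 lower, and the median log2 difference was -0.02. The smallest p belonged to Nppa, which encodes atrial natriuretic peptide, at 2142, 1386 and 1862 units with Lira, against 2845, 2610 and 3037 units with placebo (log2 difference -0.67 ± 0.13, SE, limma adjusted p = 0.16). Ankrd1, a stretch-responsive ankyrin repeat protein, gave 7078, 7786 and 6051 units with Lira, against 8992, 11036 and 8151 units with placebo (adjusted p = 0.54). In both genes, as in Acta1, every Lira array was below every placebo array.

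Genes that act on actin monomers and filaments showed no common direction. Of 20 tested genes for monomer binding and disassembly 11 were higher and 9 lower. The twinfilin Twf2 gave 1383, 1487 and 1425 units with Lira, against 1522, 1602 and 1790.0 units with placebo (adjusted p = 0.83). The coronin Coro1b gave 242, 242 and 238 units with Lira, against 219, 219 and 181 units with placebo (adjusted p = 0.87). Both pairs of groups were apart, in opposite directions. Of 23 genes for nucleation and elongation 12 were higher and 11 lower. Diaph1, a formin, gave 294, 255 and 269.8 units with Lira, against 237, 212 and 199 units with placebo (adjusted p = 0.75), with 2 of 3 probe sets of this sign. Wasl, an activator of the Arp2/3 complex, gave 356, 427 and 329.9 units with Lira, against 468, 499.6 and 468 units with placebo (adjusted p = 0.64), with 3 of 4 probe sets of this sign.

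Of 29 tested capping, crosslinking and anchoring genes 11 were higher and 18 lower. Capza1, a subunit of the capping protein of filament ends, gave 484, 401 and 487 units with Lira, against 531, 558 and 660.0 units with placebo (adjusted p = 0.69). The groups were apart on this probe set, and its other probe set gave -0.08. The bundling protein Fscn1 gave 527, 485 and 592 units with Lira, against 755, 587 and 763 units with placebo, with overlap, and only 2 of its 4 probe sets had this sign. Of 16 genes of the CCT chaperonin and prefoldin, which fold actin, 11 were higher and 5 lower. Its members with the smallest p, Cct6a and Cct2, overlapped between the groups, and each had a probe set of the other sign.

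The remaining lists were small in their differences or dim. Of 8 tested genes in the list of actin modifying enzymes 3 were higher and 5 lower. Sirt3, which the list counts although it is not an established actin modifier, gave 511, 483 and 488 units with Lira. With placebo it gave 514, 529 and 591 units (limma adjusted p = 0.89). Mical3 overlapped between the groups. Of 7 tested other actins and actin related proteins 3 were higher and 4 lower, among them Actl7b, a testis actin-like gene, at 61.5, 78.4 and 27.7 units with Lira and 95.6, 66.9 and 136 units with placebo, and Actr5, both with overlap.

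Likeness to an actin was measured as Pearson's r over the 6 arrays on the log2 scale, among the 7947 other genes whose mean signal reached 100 units. The 6 points are the same arrays and fall into the 2 groups, so the values are a description. The genes most like Acta1 were Rbp7 (r = 0.998), Phf14 (0.987), Ece2 (0.982), Lmo7 (0.980) and Sdhaf3 (0.979), and 89 genes had an r over 0.9. Rbp7, a retinol-binding protein, gave 503, 586 and 494.5 units with Lira, against 714, 724 and 880.5 units with placebo, with the 6 arrays in the same order as for Acta1. Among the actins, Actg2 was most like Acta1 (r = 0.893), and Acta2 least (r = -0.656).

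The genes most like Acta2 were Ing5 (r = 0.984), Crispld2 (0.979), Sbds (0.979), Kansl3 (0.974) and Hivep3 (0.971), and 54 genes had an r over 0.9. The array of Lira replicate 1, which stands apart in Acta2, weighs heavily in these values. Actg2, the other smooth muscle actin, had an r of -0.877 with Acta2.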

How the data were processed

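Left ventricle RNA of 6 mice was measured on Affymetrix mouse arrays, 1 array a mouse. The deposited values are linear intensity signals. The submitters' processing notes name Affymetrix Expression Console, and its version and summary method are not given in the sources here. Each array had a 2% trimmed mean of 150 units, and array medians ran from 28.6 to 39.6. Precision is set by how few arrays there are.

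Of 45101 probe sets, 34958 had 1 gene in the platform table, 932 had several and were left out, and 9211 were not in the table. The brightest probe set, controls aside, stood for a gene. After dropping the dimmest 30% of genes by mean signal, log2(signal + 16) was tested in 12735 genes with limma 3.58.1 in R 4.3.3, with a variance trend and Benjamini-Hochberg adjustment at 0.05. The step was tested on simulated data. Standard errors of actin probe sets are the moderated ones of a limma fit to all named probe sets.

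The actins and all gene lists were chosen with earlier results of these data known. One of the 10 pathway lists is not reported here on its own. Named were, of each pathway list, the 2 genes with the smallest p, of most marker lists the 2 brightest, and the 5 genes most like Acta1 and Acta2. The adipocyte, erythroid and visceral muscle lists are given without naming all of theirs. Other markers in the text, and Tpt1, were named after their values were seen. Alternatives were the filter, pseudocount, scaling, probe set rule, limma settings, a replicate block and leaving out each array.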

Additional observations from a re-analysis of the deposited data

How the results depend on the processing

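The count of genes past the threshold was 7 and depended most on the processing. It was 1 with no filter on low values, 2 with every probe set tested on its own, 0 in limma with probe sets averaged by gene (684 genes with an unadjusted p under 0.05) and 0 without a variance trend (683), while 767 genes had an unadjusted p under 0.05 in the reported fit. Leaving out 1 array gave 1 to 9 genes. Acta1 was past the threshold in 11 of the 18 alternative settings. It was not past it with no filter on low values, with probe sets averaged or tested on their own, or without a variance trend. Nor was it without Lira replicate 1, Lira replicate 3 or placebo replicate 2. The log2 difference of Acta1 stayed between -1.03 and -0.76 without any 1 array. Leaving out 1 array gave -0.03 to 0.19 for Actc1, 0.38 to 0.95 for Acta2, -0.49 to -0.31 for Actg2, -0.19 to -0.01 for Actb and -0.02 to 0.17 for Actg1. It gave -1.09 to -0.83 for the ratio of Acta1 to Actc1 and 0.25 to 0.96 for that of Acta2 to Actc1. With quantile normalisation Actc1 gave -0.03, and the ratio of Acta1 to Actc1 gave -0.84. The dim Acta2 probe sets gave 0.16 and 0.15. The pathway lists had 0 genes past the threshold without any 1 array. Leaving out 1 array, chosen after seeing the data, gave differences in the 3′ to 5′ ratio of 0.005 to 0.064 for Actb and -0.004 to 0.022 for Gapdh. Deviations of same-numbered arrays correlated at -0.03, 0.083 and -0.09, so the numbers were not taken to pair mice. With the replicate number as a block, 7 genes passed, and the differences were -0.90 for Acta1, 0.10 for Actc1, 0.75 for Acta2, -0.40 for Actg2, -0.08 for Actb and 0.07 for Actg1. The cause of these shifts was not tested.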
